A study of Mus musculus with 10 samples.

Results

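The loss of Snx14 was compared between 2 brain regions of the same mice. For every gene, the knockout (KO) effect in cerebellum, which is the log2 ratio of KO to control, was set against the KO effect in cortex, and the difference between both effects was tested with each mouse as its own block. All 10 of the 10 RNA-seq libraries of the series entered, a cerebellum and a cortex library from each of 5 mice at 1 year of age. The 3 control mice were 2 Het animals (controls 1 and 2) and 1 WT animal (control 3), and the 2 mutant mice (KO 1 and KO 2) were labelled Snx14 KO. KO mice carried a homozygous frameshift deletion of 1 base in exon 14 of Snx14, made with CRISPR/Cas9 and backcrossed to C57BL/6J. The allele was constitutive, so every cell type of both regions carried it, and since part of the KO embryos die, the mice sampled at this age were survivors. The labels give the cell type of each library as a mix, that is, whole dissected tissue.

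SNX14 is a sorting nexin of the endoplasmic reticulum that sits at contacts with lipid droplets, and its loss in humans causes a cerebellar ataxia with early childhood onset. Purkinje cells (PCs), the output neurons of the cerebellar cortex, fire continuously and rely on calcium release through inositol trisphosphate (IP3) receptors. Astrocytes, among them the Bergmann glia that ensheath PC dendrites, and microglia, the resident phagocytes, respond to neuronal damage. In bulk tissue, fewer cells of a type and less RNA per cell cannot be told apart, which holds for every cell type list below.

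Libraries held 16088310 to 22975355 counts assigned to genes, and levels are given as CPM, each library's counts scaled to a common total. Markers of cerebellar granule cells summed to 5524 to 6595 CPM in cerebellum and to 203.8 to 247.7 CPM in cortex, in keeping with the tissue labels. Cortical upper-layer markers summed to 363.4 to 772.7 CPM in cortex, with control 2 lowest, and to 171.1 to 222 CPM in cerebellum. The cortex library of control 2 also stood apart by its high levels of striatal and oligodendrocyte markers, and values without it are given beside the results on those genes. By the genes of the sex chromosomes, control 2 and KO 2 were male and the other mice female, so that each genotype class held both sexes.

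Snx14 itself was measured at 42.8, 39.9 and 73.3 CPM in control cerebellum and at 15.5 and 17.4 CPM in KO cerebellum. In cortex it was 34.4, 35.0 and 50.9 CPM in controls and 14.8 and 16.1 CPM in KO mice. Both KO libraries lay under all controls in each tissue, and the WT animal was the highest of the controls in both. The KO effect was -1.65 in cerebellum and -1.37 in cortex on the log2 scale, and the difference of -0.26 ± 0.14 (SE, 95% interval -0.57 to 0.06) did not pass the test (adjusted p = 0.567).

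Of 20614 genes tested with edgeR's quasi-likelihood test, 128 (0.621%) had a KO effect that differed between the tissues at an adjusted p under 0.05. The effect was higher in cerebellum than in cortex for 42 genes (0.204%) and lower for 86 (0.417%). This balance turned without KO 1, with 63 higher and 27 lower, and with no filter on low counts, with 486 higher and 368 lower. In 127 of the 128, the cerebellum-to-cortex ratios of both KO mice lay outside the range of the 3 control mice, a separation that was present in 28% of all genes tested. All 128 differences exceeded 0.5 on the log2 scale. Within cerebellum alone, 391 genes (1.9%) passed the KO against control test, 86 of the 128 among them. Within cortex alone 0 genes (0%) passed by edgeR, with 1241 genes at an unadjusted p under 0.05, whereas DESeq2 called 52. When both libraries of 1 mouse were left out, all 128 differences kept their sign, but 14 genes alone stayed called whichever mouse it was: Stk17b, Garnl3, Itpka, Car8, Icmt, Hrk, Gm44101, Agt, Cck, Kitl, Kcnip1, Clmn, D430019H16Rik and Cep76. For other genes described below, the mice whose removal ended the call are named. In the edgeR fit without the mouse block, Gm44101, Clmn and Agt of the 14 were not called (adjusted p = 0.227, 0.16 and 0.0551).

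**Figure D1:**
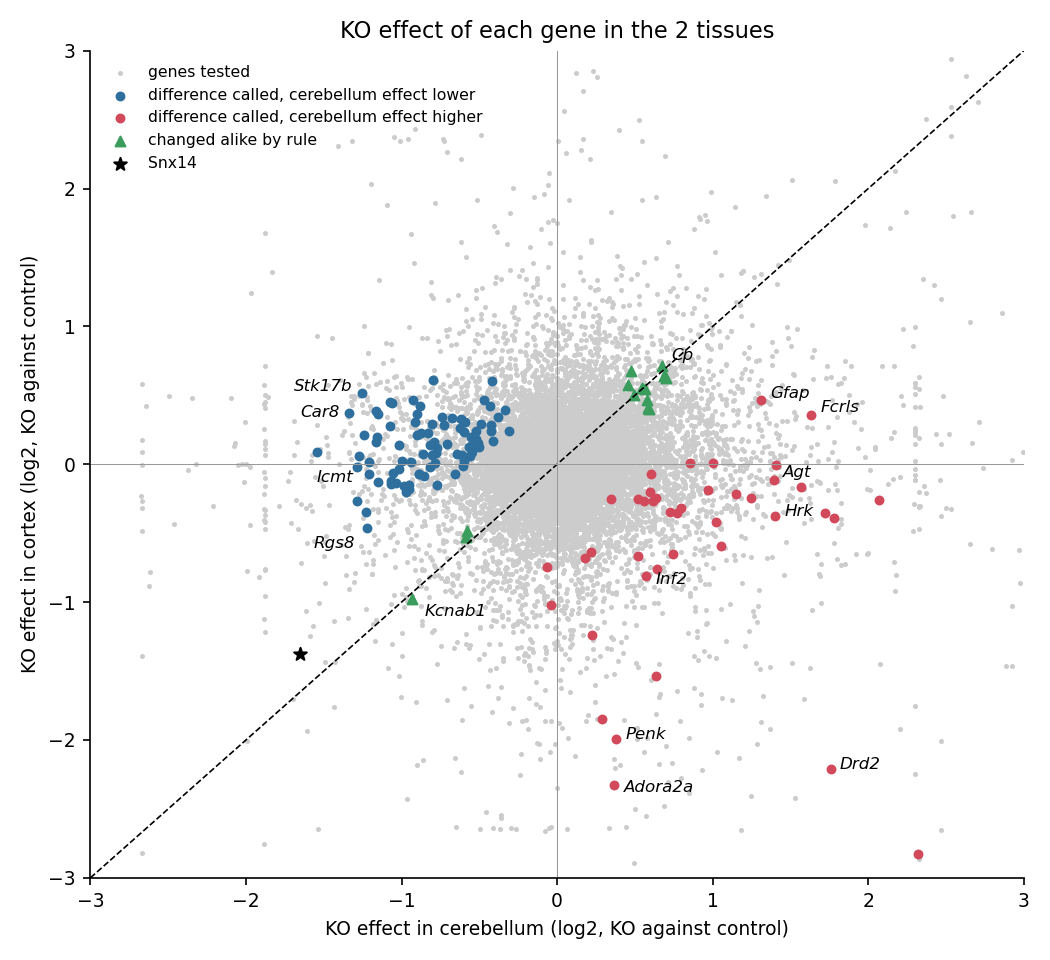
The KO effect in cerebellum (x axis, log2) is plotted against the KO effect in cortex (y axis, log2) for each gene tested, with the 42 genes of higher and the 86 of lower effect in cerebellum coloured. The genes of lower effect have medians of -0.82 on the x axis and 0.15 on the y axis, and those of higher effect of 0.76 and -0.35. Prl and Ighg1 lie outside the plotted range of 3 log2 units either way.

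The 86 genes with a lower effect in cerebellum had their KO effect mainly there. Their median KO effect was -0.82 in cerebellum and 0.15 in cortex, and 59 of them had the larger effect in cerebellum without an opposite one in cortex. In 26 the tissue effects had opposite signs and both exceeded 0.25 in size. Control cerebellum held at least 2 times the control cortex level for 49 of the 86, compared with 11.4% of all genes tested. The 42 genes with a higher effect in cerebellum showed another pattern, with medians of 0.76 in cerebellum and -0.35 in cortex, and 23 of the 42 had opposite effects of over 0.25. For 25 of these 42 the control cortex level was at least 2 times that of control cerebellum, compared with 15.4% of all genes. The control levels are also the baseline of the KO effects, so these shares are given as a description. Both classes were selected on the difference itself, which favours effects of opposite sign. The medians and counts of opposite effects therefore describe the selected genes and are not separate evidence.

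PC genes formed the largest recognisable group of the lower class. Of 24 PC markers tested, 11 were called lower and 0 higher, against 0.417% and 0.204% of all genes tested. Their median difference was -0.80 against 0.03 over all genes, and 0 of the 24 had a positive KO effect in cerebellum. The summed PC marker level was 12270 to 14520 CPM in control cerebellum and 6611 to 6796 CPM in KO cerebellum, whereas in cortex it was 2517 to 2663 CPM in controls and 2130 to 2132 CPM in KO mice. The markers were chosen with earlier results of these data known, so their count is not independent evidence of a direction.

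Car8 encodes a carbonic anhydrase-related protein that binds the IP3 receptor. It was 1836, 1596 and 1733 CPM in control cerebellum and 681 and 682 CPM in KO cerebellum. In cortex it was 12.6, 11.6 and 10.9 CPM in controls and 13.5 and 16.7 CPM in KO mice. KO libraries were thus below all controls in cerebellum and above all of them in cortex, and the effects of -1.34 and 0.37 differed by -1.70 ± 0.14 (adjusted p = 0.00101). Kitl, the stem cell factor through which PCs signal to Kit on molecular layer interneurons, had a similar arrangement. Control cerebellum held 178, 138 and 174 CPM of Kitl and KO cerebellum 74.3 and 72.6 CPM. Control cortex held 48.6, 31.6 and 42.4 CPM and KO cortex 56.7 and 48.6 CPM, so that in cortex KO 2 and control 1 were at about the same level. The difference for Kitl was -1.52 ± 0.12 (95% interval -1.79 to -1.26, adjusted p = 0.00101).

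Some of the called genes, picked after their values were seen, act on IP3 or calcium. Itpr1, the IP3 receptor of PCs, was 4253, 2956 and 4339 CPM in control cerebellum and 1767 and 1704 CPM in KO cerebellum, against 740 to 932 CPM over all 5 cortex libraries. Its difference was -1.01 ± 0.13 (adjusted p = 0.00879). Itpka, the kinase that phosphorylates IP3, differed by -1.02 ± 0.11 (adjusted p = 0.00267) although it is the more abundant in cortex. Its level was 57.8, 49.1 and 54.4 CPM in control and 21.0 and 23 CPM in KO cerebellum, and 154, 125 and 152 CPM in control and 118 and 121 CPM in KO cortex, so that KO libraries were below every control in both tissues. Inpp5a, a phosphatase of IP3, differed by -0.82 and Cacna1g, a T-type calcium channel, by -1.15, both past the test. Itpr1 and Cacna1g lost the call without control 1 (adjusted p = 0.0664 and 0.0687) or KO 2 (0.116 and 0.141). Inpp5a lost it without any mouse but control 2 (0.0688 to 0.208).

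Calb1 and Rgs8 had lower levels in KO mice of both tissues, with the larger effect in cerebellum. Calb1, a calcium-buffering protein, was 1185, 1070 and 1184 CPM in control and 488 and 489 CPM in KO cerebellum, and 149, 122 and 144 CPM in control and 119 and 99.4 CPM in KO cortex. The effects were -1.23 and -0.34, and their difference of -0.89 ± 0.12 passed the test (adjusted p = 0.0121). Rgs8, which accelerates GTP hydrolysis by G proteins, was 1358, 1229 and 1290 CPM in control and 563 and 545 CPM in KO cerebellum. In cortex its controls were 126, 134 and 129 CPM and KO mice 96.3 and 91.8 CPM. For both genes, KO mice lay below every control in each tissue. In cortex Rgs8 was highest in control 2 and lowest in KO 2, as the striatal markers described further on were. For Rgs8 the effects of -1.22 and -0.46 differed by -0.76 (adjusted p = 0.0212). Pcp2, Homer3 and Dner differed by -0.93, -0.80 and -0.81 with cortex effects of -0.14, -0.15 and 0.01. Exons of Pcp2 lie to 51.5% inside another gene, so its count is uncertain. Calb1 lost the call without control 1 (adjusted p = 0.0638) or KO 1 (0.0751). Rgs8, Pcp2, Homer3 and Dner each lost it without any mouse but control 2 (0.0567 to 0.149 for Rgs8, 0.0638 to 0.233 for Pcp2, 0.0567 to 0.178 for Homer3 and 0.0583 to 0.124 for Dner).

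Other PC markers were not called. Pcp4 had an effect of -0.71 in cerebellum and -0.85 in cortex, with a difference of 0.03 (95% interval -0.55 to 0.60), which is too wide to call the effects alike. Kcnab1, a beta subunit of potassium channels, met the rule for alike genes given further on.

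**Figure D2:**
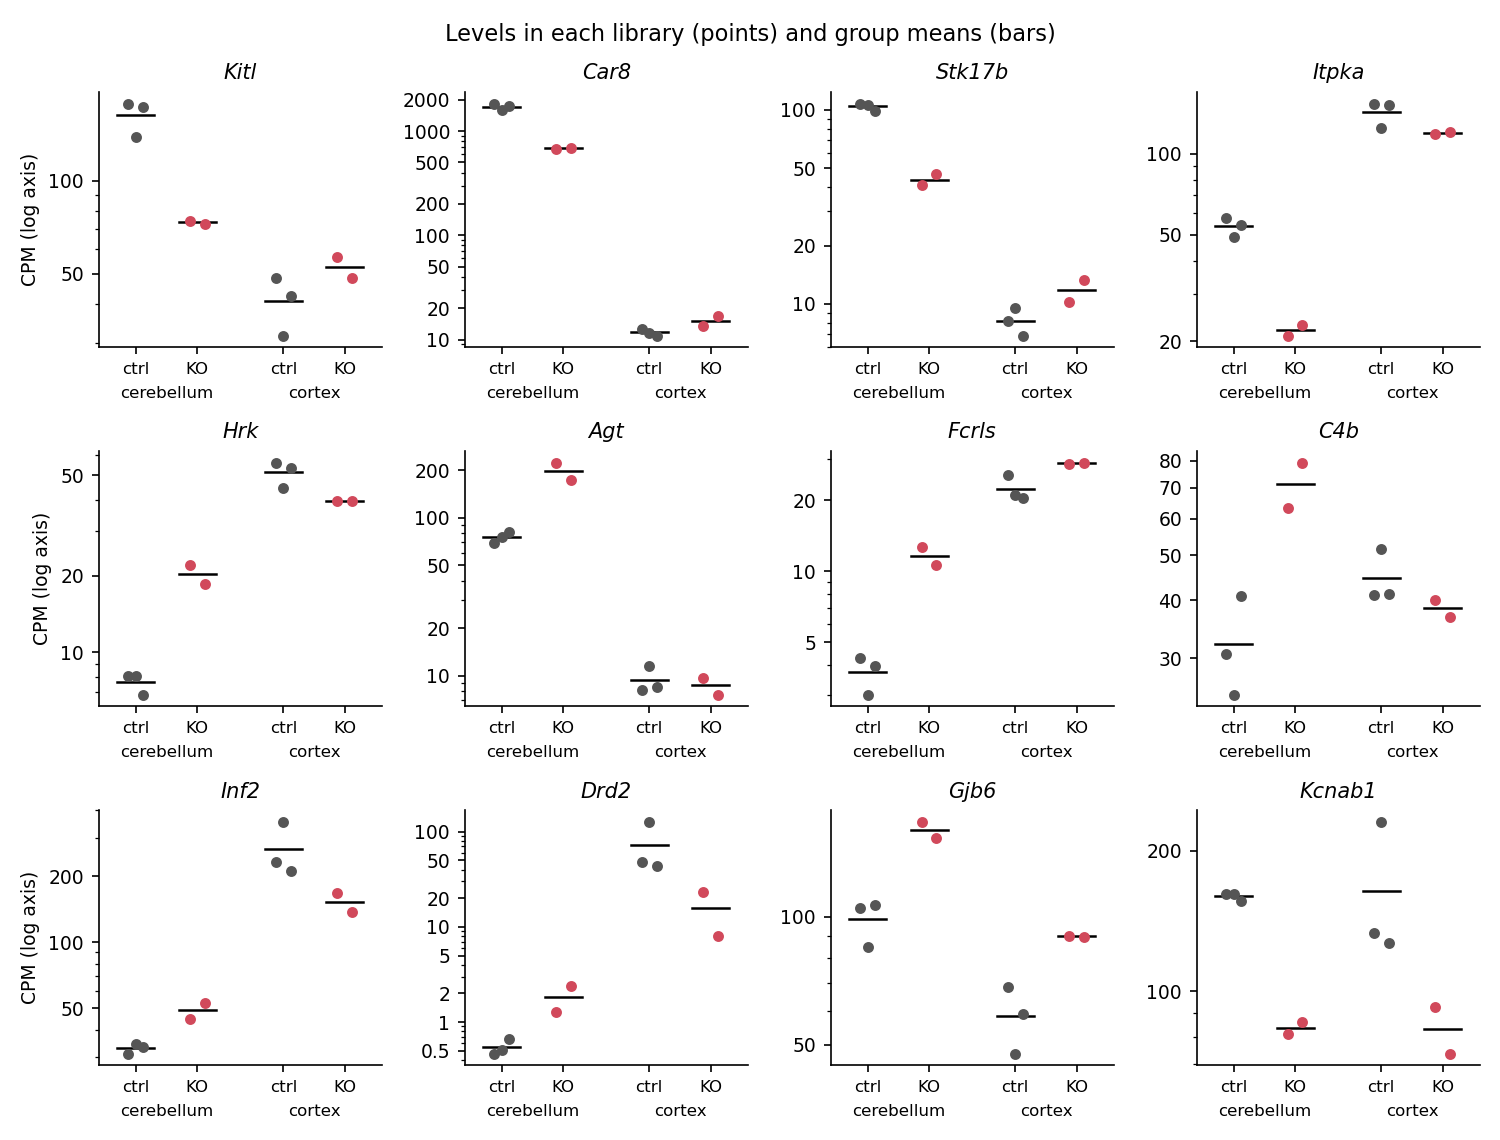
CPM on a log axis of 12 genes in each library (points) with group means (bars), control in grey and KO in red. Kitl, Car8, Stk17b and Itpka are lower in KO cerebellum, Hrk, Agt, Fcrls and C4b higher, Inf2 and Drd2 lower in KO cortex and higher in KO cerebellum, and Gjb6 and Kcnab1 shift the same way in both tissues.

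Several of the smallest p-values in the lower class belonged to genes outside the PC list. Stk17b, a serine/threonine kinase, was 108, 107 and 99.0 CPM in control and 40.9 and 46.6 CPM in KO cerebellum. In cortex it was 8.21, 9.53 and 6.88 CPM in controls and 10.2 and 13.3 CPM in KO mice. Its KO libraries were the lowest in cerebellum and the highest in cortex, with a difference of -1.77 ± 0.15 (adjusted p = 0.00101). Icmt, which methylates prenylated proteins, fell from 664, 577 and 605 CPM to 266 and 266 CPM in cerebellum, while all 5 cortex libraries lay between 83.8 and 90.9 CPM. Kcnip1, an auxiliary subunit of potassium channels, had effects of -1.29 in cerebellum and -0.02 in cortex. Garnl3 had effects of -1.0 and 0.02, and the centrosomal gene Cep76 of -1.16 and 0.16.

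Peptide genes were called in both directions. Cck, the precursor of cholecystokinin, was 35.7, 34.8 and 32.3 CPM in control and 15.4 and 13 CPM in KO cerebellum, whereas in cortex it was 254, 249 and 282 CPM in controls and 253 and 292 CPM in KO mice. Npy, neuropeptide Y, was 12.1, 13.1 and 13.4 CPM in control and 6.92 and 5.84 CPM in KO cerebellum, and 66.9, 84.2 and 63.3 CPM in control and 80.1 and 77.9 CPM in KO cortex. KO and control libraries of both genes separated in cerebellum and overlapped in cortex, and the differences were -1.34 (adjusted p = 0.00482) and -1.17 (adjusted p = 0.0108). Among 15 neuropeptide genes tested, these 2 were lower and Penk was higher, against 0.417% and 0.204% of all genes tested. Npy lost the call without control 1 (adjusted p = 0.0588) or KO 2 (0.124).

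Camk2a, the alpha subunit of calcium/calmodulin-dependent kinase II, had effects of -0.90 in cerebellum and 0.37 in cortex, a difference of -1.34 ± 0.20 (adjusted p = 0.0177). It was 119, 95.2 and 126 CPM in control and 58.3 and 62.7 CPM in KO cerebellum. Its cortex level of 3793, 1757 and 3540 CPM in controls and 3716 and 4094 CPM in KO mice placed control 2 far below the other libraries. Without control 2 the difference remained called (adjusted p = 0.000477), and without KO 1 (adjusted p = 0.0654) or KO 2 (0.142) it was not.

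Hopx was the Bergmann glia marker called, 1 of 6 tested. It was 158, 184 and 166 CPM in control and 113 and 111 CPM in KO cerebellum, and 29.3, 32.7 and 27.8 CPM in control and 32.3 and 42.0 CPM in KO cortex. The KO libraries were below all controls in cerebellum only, and the difference was -0.90 ± 0.13 (adjusted p = 0.0175). Reads of Hopx and of its overlapping antisense gene could not be told apart, since counting did not use strand. H2-D1, a class I histocompatibility gene, was also in the lower class, with effects of -0.41 and 0.17 (difference -0.58, adjusted p = 0.0386). It was the only 1 of 13 antigen presentation genes called. The share called over all genes tested was 0.621%. Hopx lost the call without control 1 (adjusted p = 0.0781), control 3 (0.0558) or KO 2 (0.149), and H2-D1 without any mouse but control 2 (0.0936 to 0.262).

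None of the 12 granule cell markers was called in either direction, against 0.621% of all genes tested. This 0 therefore does not set the list apart. Their median KO effect was 0.00 in cerebellum and 0.22 in cortex, while that of the PC markers was -0.94 and -0.13. The granule cell markers' median difference of -0.18 ranged from -0.50 to 0.11 when each mouse was left out in turn.

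**Figure D3:**
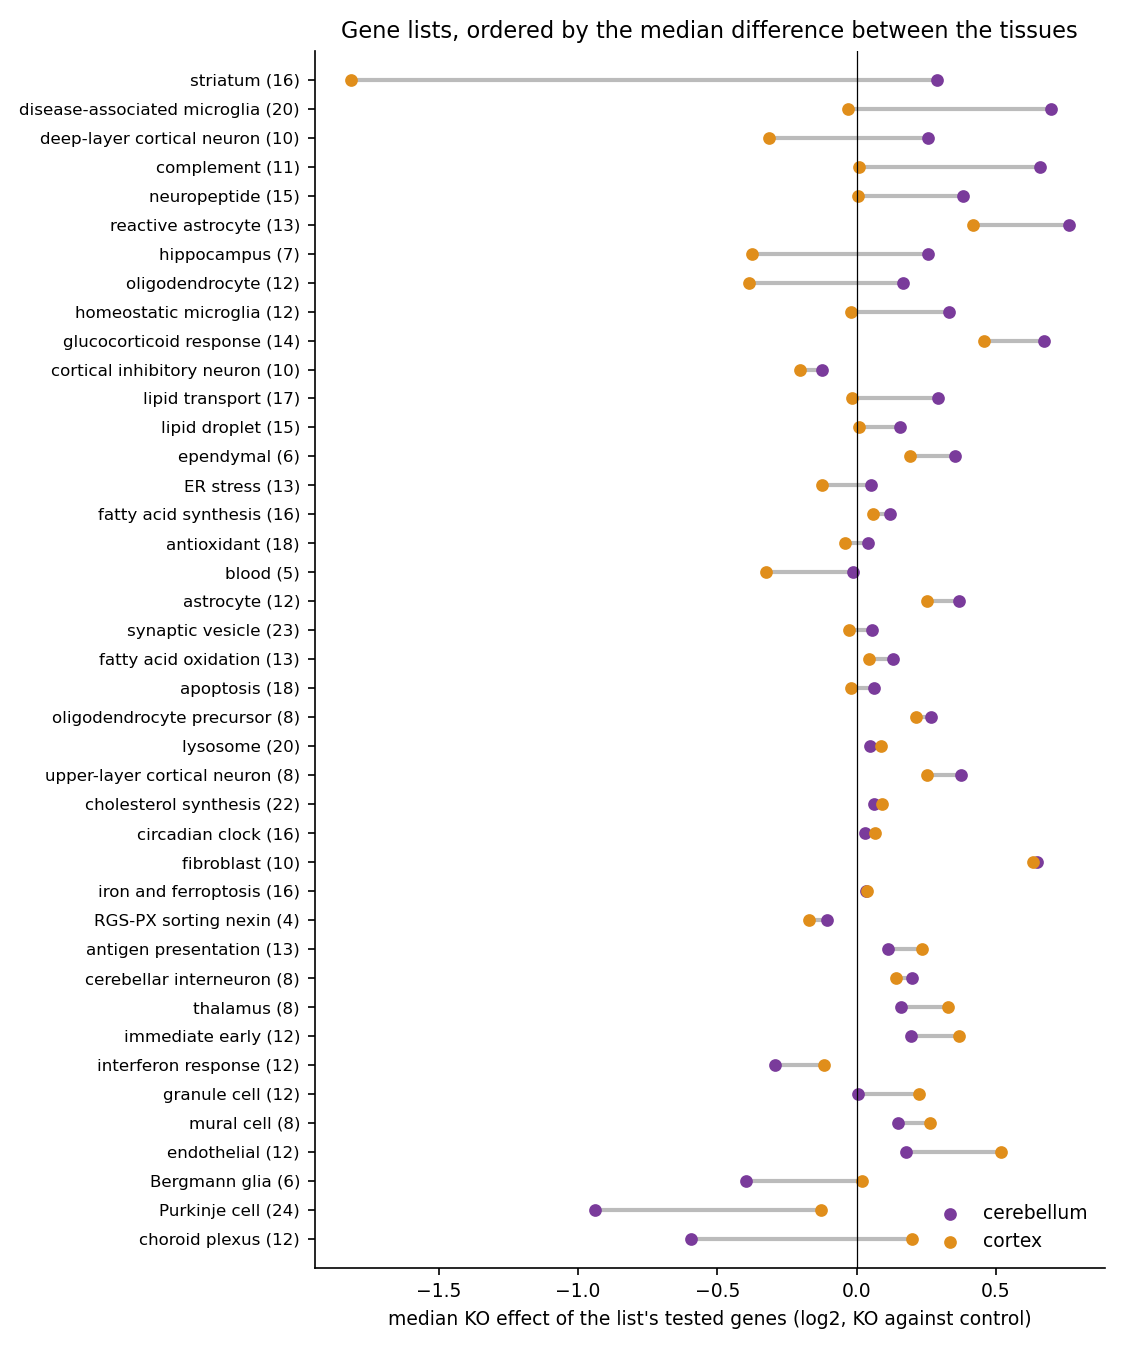
Median KO effect in cerebellum and in cortex (x axis, log2) of the gene lists with at least 3 members tested (y axis, number tested in parentheses). PC markers are at -0.94 in cerebellum and -0.13 in cortex, striatal markers at 0.29 and -1.82, and astrocyte markers at 0.37 and 0.25.

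In the higher class, the smallest p-value belonged to Hrk, a BH3-only gene that promotes apoptosis. It was 8.04, 8.10 and 6.82 CPM in control and 22 and 18.5 CPM in KO cerebellum. In cortex it was 56.0, 44.7 and 53.1 CPM in controls and 39.5 and 39.7 CPM in KO mice. The KO libraries were above all controls in cerebellum and below all in cortex, and the difference was 1.76 ± 0.17 (95% interval 1.40 to 2.13, adjusted p = 0.00154). Hrk was the only 1 of 18 apoptosis genes called, against 0.621% of all genes tested.

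Further genes of the higher class were abundant in cortex and low in cerebellum. Npas2, a transcription factor of the circadian clock, was 3.32, 2.08 and 3.36 CPM in control and 6.70 and 7.13 CPM in KO cerebellum, and 52.8, 48.2 and 52.3 CPM in control and 44.4 and 41.8 CPM in KO cortex. Camkv, a vesicle-associated pseudokinase, was 5.19, 4.40 and 5.09 CPM in control and 9.01 and 7.71 CPM in KO cerebellum, and 563, 642 and 555 CPM in control and 481 and 440 CPM in KO cortex. For both genes the KO libraries were higher than controls in cerebellum and lower in cortex, with differences of 1.5 (adjusted p = 0.00667) and 1.12 (adjusted p = 0.0141). Lmo3, a LIM-only transcription cofactor, had a difference of 1.66, and Inhba, the beta A subunit of activin, one of 1.47. In cortex Camkv and Lmo3 were highest in control 2 and lowest in KO 2, as the striatal markers described further on were. D430019H16Rik, which overlapped between KO and control in cortex, differed by 1.75, with 1.43 to 2.60 CPM in control and 5.60 and 6.30 CPM in KO cerebellum against 126 to 155 CPM over all cortex libraries. Npas2 lost the call without KO 2 (adjusted p = 0.0791), and Lmo3 without control 1 (0.0811) or KO 2 (0.149). Camkv and Inhba lost it without control 1 (0.0561 and 0.0922), KO 1 (0.0636 and 0.0736) or KO 2 (0.0888 and 0.0523).

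A few glial and immune genes were in the higher class, while most members of those lists were not called. Called higher were 1 of 13 reactive astrocyte genes and 0 of 12 astrocyte markers. So were 1 of 12 homeostatic microglia markers and 2 of 11 complement genes, against 0.204% of all genes tested. Agt, angiotensinogen, which astrocytes secrete, was 69.6, 75.6 and 81.2 CPM in control and 224 and 173 CPM in KO cerebellum, and 8.09, 11.6 and 8.48 CPM in control and 9.73 and 7.59 CPM in KO cortex. KO libraries separated from controls in cerebellum and overlapped with them in cortex, with a difference of 1.51 ± 0.17 (adjusted p = 0.00361). In cortex Agt was highest in control 2 and lowest in KO 2, as the striatal markers described further on were. Gfap, the intermediate filament of reactive astrocytes, was 190, 193 and 223 CPM in control and 506 and 497 CPM in KO cerebellum. In cortex it was 158, 116 and 133 CPM in controls and 192 and 181 CPM in KO mice. Both KO libraries were above all controls in each tissue, and the effects of 1.31 and 0.46 differed by 0.84 ± 0.15 (adjusted p = 0.033). Gfap lost the call without any mouse but control 2 (adjusted p = 0.0547 to 0.218).

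The 11 complement genes had a median KO effect of 0.66 in cerebellum and 0.01 in cortex, and 2 of them were called higher. C4b, the fourth complement component, was 30.6, 25.0 and 41.0 CPM in control and 63.2 and 79.3 CPM in KO cerebellum, and 41.1, 51.7 and 41.2 CPM in control and 39.96 and 36.9 CPM in KO cortex. C1qa, a chain of the initiating C1q complex, was 22.8, 27.8 and 28.1 CPM in control and 51.1 and 43.9 CPM in KO cerebellum, and 47.8 to 58.8 CPM in all cortex libraries. KO cerebellum exceeded every control for both, and the differences were 1.38 ± 0.25 (adjusted p = 0.0368) and 0.84 ± 0.15 (adjusted p = 0.0363). The cortex level of C4b was highest in control 2 and lowest in KO 2, as for the striatal markers described further on. C4b and C1qa lost the call without control 1 (adjusted p = 0.134 and 0.135), KO 1 (0.0593 and 0.201) or KO 2 (0.274 and 0.14). The summed complement level was 180.2 to 219.2 CPM in control and 304.5 to 324.4 CPM in KO cerebellum, and 237.6 to 290.5 CPM in control and 254.3 to 256.4 CPM in KO cortex.

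Among microglial genes, Fcrls was called. It was 4.30, 3.01 and 3.97 CPM in control and 12.7 and 10.6 CPM in KO cerebellum, and 25.7, 21.1 and 20.5 CPM in control and 28.5 and 28.9 CPM in KO cortex. The KO libraries were above the controls in both tissues, with effects of 1.63 and 0.36 and a difference of 1.28 ± 0.19 (adjusted p = 0.0175), not called without control 1 (0.0861), KO 1 (0.0908) or KO 2 (0.0701). None of 20 genes of disease-associated microglia was called, with a median difference of 0.72 that was 0.41 without KO 2 and 0.47 without control 2. With 0.621% of all genes called, this lack of calls does not set the list apart. Trem2, a lipid-sensing receptor of microglia, differed by 0.94 (adjusted p = 0.121), the lysosomal Cd68 by 0.99 (adjusted p = 0.222), and Apoe, the lipid carrier, by 0.54 (adjusted p = 0.097). Serpina3n, a protease inhibitor of reactive astrocytes, differed by 1.31 (adjusted p = 0.0576).

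**Figure D4:**
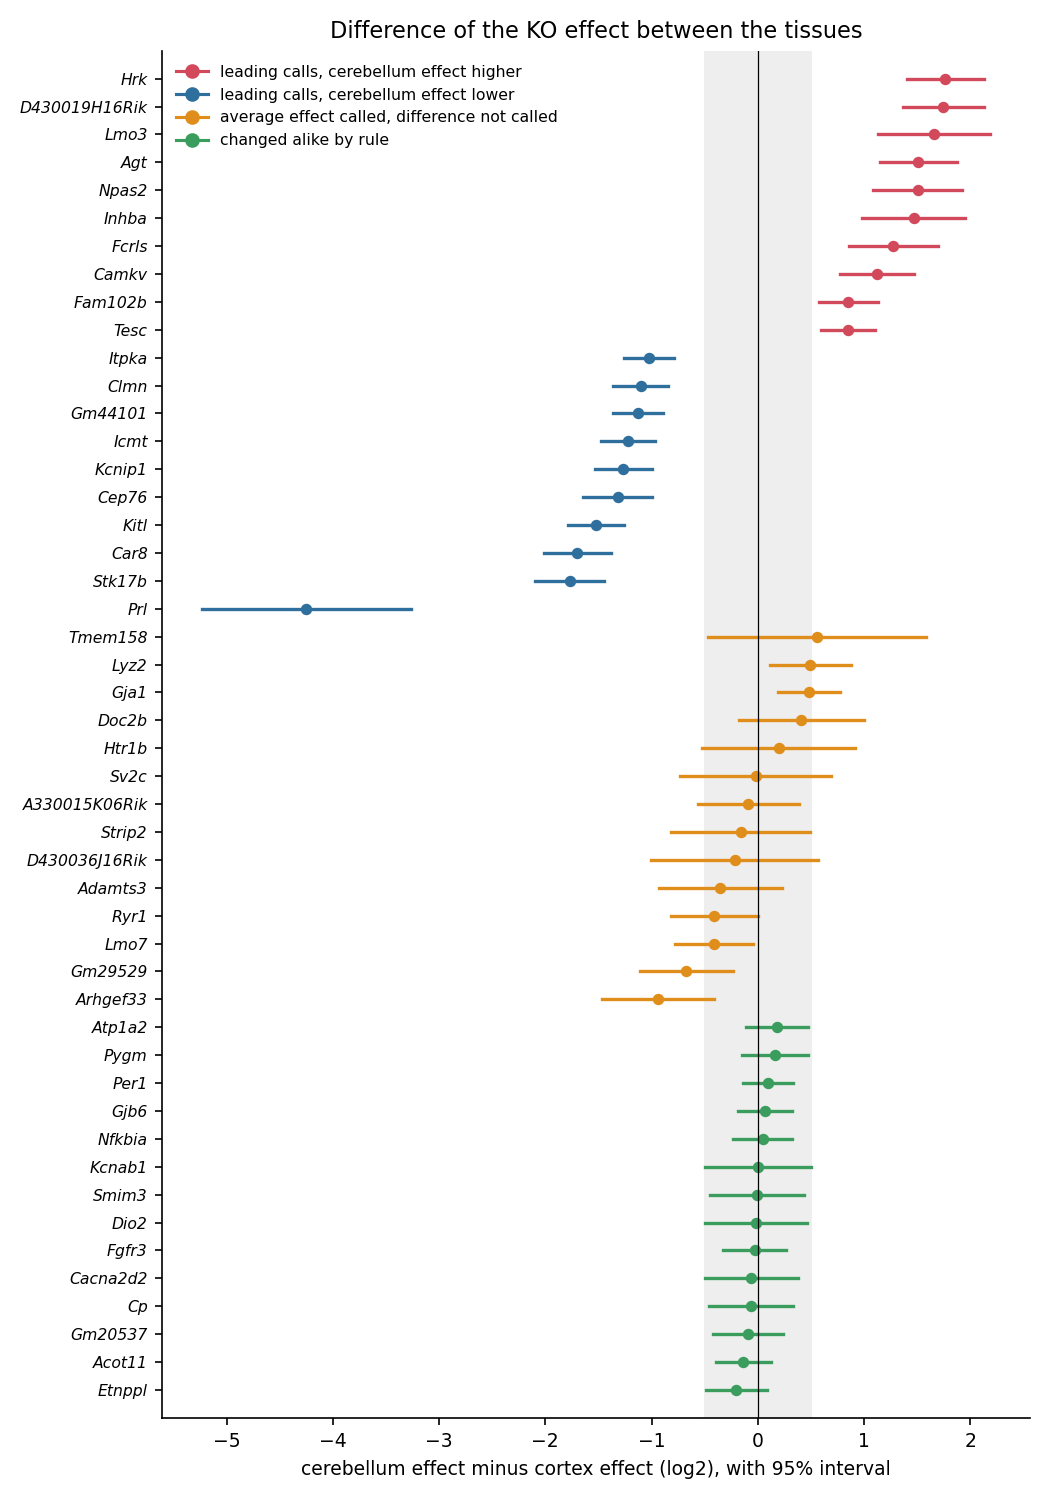
Difference of the KO effect (cerebellum minus cortex, x axis, log2) for the 10 leading calls in each direction, most genes called for the average but not for the difference, and genes alike by rule (y axis), with points as estimates and lines as 95% intervals. Prl is the lowest, Stk17b, Car8 and Kitl follow, Hrk and Agt have intervals above 0, and the interval of Gjb6 runs from -0.18 to 0.32.

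The cortex effect was the larger in size for 14 of the 42 genes of the higher class and 3 of the 86 of the lower class. Tesc, the calcium-binding tescalcin, was 36.8, 45.5 and 32.8 CPM in control and 45.8 and 41.0 CPM in KO cerebellum, and 53.4, 74.4 and 49.1 CPM in control and 37.5 and 36.2 CPM in KO cortex. Tesc overlapped in cerebellum and separated in cortex, with a difference of 0.85 ± 0.11 (adjusted p = 0.0108). Cacng4, a regulatory subunit of AMPA receptors, had effects of nearly equal size in both tissues, 0.64 and -0.76, and Abi3bp, an extracellular matrix protein, of -0.04 and -1.02. In the opposite direction, Cpeb1, which controls polyadenylation of mRNA, had effects of -0.34 and 0.39 (difference -0.74, adjusted p = 0.0254), and Flt3, a receptor tyrosine kinase, of -0.42 and 0.61 (difference -1.02, adjusted p = 0.0321). Tesc and Flt3 lost the call without control 1 (adjusted p = 0.0561 and 0.128), KO 1 (0.0652 and 0.179) or KO 2 (0.0701 and 0.142), and Cacng4 without KO 1 (0.0565) or KO 2 (0.147). Abi3bp and Cpeb1 lost it without any mouse but control 2 (0.08 to 0.342 and 0.0558 to 0.162).

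Striatal markers had their effect mainly in cortex. Over 16 markers the median KO effect was 0.29 in cerebellum and -1.82 in cortex. All 16 differences were positive, and 3 markers were called, against 0.621% of all genes tested. Their median difference of 2.39 ranged from 1.37 (without KO 2) to 3.14 (without KO 1). Without control 2 it was 1.59, with a median of -1.27 in cortex. Their summed level in cortex was 2167, 4851 and 1967 CPM in controls and 1226 and 642.3 CPM in KO mice, against 476 to 582 CPM over the cerebellum libraries, where 1, 2 and 1 markers were at 0 in controls and 3 and 0 in KO mice. Drd2, the dopamine D2 receptor of striatal neurons, was 47.7, 128 and 43.5 CPM in control and 23.4 and 7.97 CPM in KO cortex, and at 0.467 to 2.4 CPM in all cerebellum libraries. Control 2 was the highest and KO 2 the lowest of the cortex libraries. The difference for Drd2 was 4.13 ± 0.69 (adjusted p = 0.0254), 3.41 without control 2 (adjusted p = 0.0222), 2.81 without KO 2 (adjusted p = 0.144) and 4.26 without control 1 (adjusted p = 0.1).

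Penk, the enkephalin precursor, and Adora2a, the striatal adenosine receptor, differed by 2.41 and 2.85, and without KO 2 by 1.76 (adjusted p = 0.178) and 1.79 (adjusted p = 0.191). Inf2, a formin, was 232, 355 and 211 CPM in control and 167 and 137 CPM in KO cortex, and 31.1, 34.5 and 33.3 CPM in control and 44.8 and 53.0 CPM in KO cerebellum. In cortex it was highest in control 2 and lowest in KO 2, as the summed striatal markers were, and its difference of 1.35 was 1.08 without KO 2 (adjusted p = 0.149). Without control 2 the differences were 1.96 for Penk (adjusted p = 0.00515), 2.43 for Adora2a (adjusted p = 0.0379) and 1.12 for Inf2 (adjusted p = 0.00411). Without control 1 the adjusted p was 0.0811 for Penk, 0.1 for Adora2a and 0.0811 for Inf2, and without control 3 it was 0.0548 for Penk and 0.0849 for Adora2a. The same extremes in cortex were present in 11 of the 14 genes of the higher class with the larger effect in cortex. Tesc, Fam102b and Cacng4 were among the 11. These extremes were present in 18 of all 42, Camkv, Lmo3, Agt and C4b among them. They were also present in 1 of the 86 lower ones, Rgs8, against 7.8% of all genes tested. The part of the striatal markers' level in these differences was not tested.

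Oligodendrocyte markers moved with control 2. Over 12 markers the median KO effect in cortex was -0.39, and 0 of the 12 were positive. Their summed level was 9409 CPM in the cortex of control 2, 5094 and 5204 CPM in the other controls and 5563 and 5519 CPM in KO mice. Without control 2 the median in cortex was 0.02. None of the 12 differences was called.

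**Figure D5:**
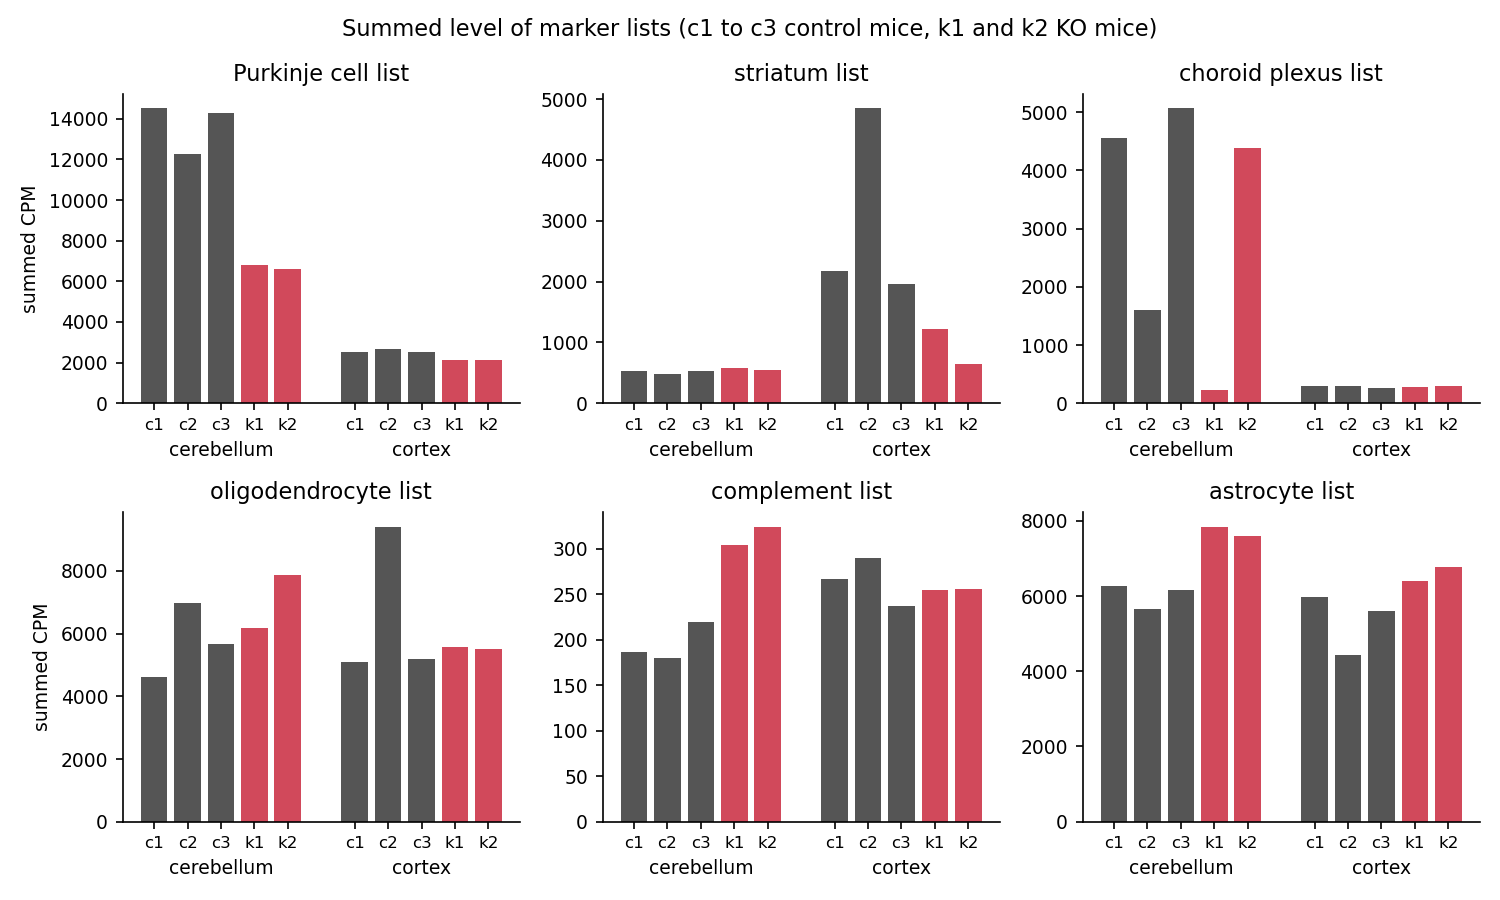
Summed CPM of 6 marker lists (y axis) in each library (bars, c1 to c3 control mice in grey, k1 and k2 KO mice in red), by tissue. PC markers are lower in KO cerebellum, astrocyte and complement markers are higher there, and striatal and oligodendrocyte markers are highest in the cortex of control 2.

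Some called differences rested on 1 mouse. Prl, the pituitary hormone prolactin, was 10.5, 0 and 1.27 CPM in control and 18.6 and 0.207 CPM in KO cerebellum, and 3.24, 0.101 and 0.307 CPM in control and 121 and 0.193 CPM in KO cortex. Its difference of -4.25 was -1.53 without KO 1 (adjusted p = 0.872) and -4.09 without control 1 (adjusted p = 0.134). Ighg1, an immunoglobulin heavy chain, reached 240 and 118 CPM in the cerebellum and cortex of KO 1 and at most 1.68 CPM in any other library, and without KO 1 it was not called (adjusted p = 0.976), nor without control 1 (0.182), control 3 (0.0936) or KO 2 (0.111). Galr1, a galanin receptor, was called with a difference of 5.13 but reached at most 2.42 CPM in any library, and it lost the call whichever mouse was left out (adjusted p = 0.0561 to 0.207). Choroid plexus markers had a median difference of -1.06 that ranged from -3.57 to -0.07 as mice were left out. Their summed level was 223.7 CPM in the cerebellum of KO 1 and 1599 to 5068 CPM in the other cerebellum libraries, and 0 of the 12 were called.

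The KO effect averaged over both tissues was tested on the mean of each mouse's 2 libraries with limma. Of all genes, 25 (0.121%) passed, 3 higher and 22 lower in KO mice, and 10 of these were also called for a difference. Snx14 was not among the 25, although its KO libraries lay under all controls in each tissue. Absence from the 25 therefore does not show absence of a shared effect. The average can pass on cerebellum alone, as it did for Icmt, Kcnip1, Cck and Garnl3, and 19 of the 25 had KO libraries on the same side of all controls in both tissues. With the mouse as a random effect, 41 genes passed, 19 higher and 22 lower, and 13 of the 25 were among them. All 25 were called without control 2, 15 other genes, all higher, passed without KO 2, and 0 passed without control 1, control 3 or KO 1. Lyz2, lysozyme of myeloid cells, was the highest of the 3, with 11.3, 11 and 12.3 CPM in control and 30.5 and 29.7 CPM in KO cerebellum, and 8.27, 8.72 and 7.62 CPM in control and 15.9 and 14.5 CPM in KO cortex. The KO libraries separated from all controls in both tissues, and its average effect was 1.13 ± 0.09 (adjusted p = 0.0226). The difference of 0.50 between its tissue effects (95% interval 0.11 to 0.88) did not pass the test (adjusted p = 0.3). Gja1, the astrocytic connexin 43, had an average effect of 0.56 (adjusted p = 0.0411), and Gfap was the other gene that rose. With the mouse as a random effect, the adjusted p was 0.000449 for Lyz2, 0.0141 for Gja1 and 0.00357 for Gfap.

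Sv2c and Doc2b, both genes of synaptic vesicle release, were among those with lower averages. Sv2c, a vesicle glycoprotein, was 65.7, 44.2 and 54.5 CPM in control and 24.6 and 34.4 CPM in KO cerebellum, and 55.9, 87.0 and 59.4 CPM in control and 41.0 and 32.0 CPM in KO cortex. Doc2b, a calcium sensor of vesicle release, was 93.2, 77.7 and 96.2 CPM in control and 51.5 and 50.5 CPM in KO cerebellum, and 29.0, 44.4 and 28.8 CPM in control and 17.4 and 12 CPM in KO cortex. KO libraries were below every control in both tissues, and the averages were -0.88 (adjusted p = 0.0226) and -1.0 (adjusted p = 0.0411). Their differences of -0.02 (95% interval -0.73 to 0.69) and 0.41 were too imprecise to call the effects alike. With the mouse as a random effect the averages did not pass (adjusted p = 0.137 and 0.052). In cortex both genes were highest in control 2 and lowest in KO 2, as the summed striatal markers were, and so were 10 of the 15 genes called for the average but not for the difference, Htr1b among them, against 7.8% of all genes tested. The part of the striatal markers' level in these averages was not tested. Htr1b, a serotonin receptor, had an average of -1.14 (adjusted p = 0.041, or 0.0841 with the mouse as a random effect), and reads of this gene cannot be told from those of its antisense neighbour D430036J16Rik. Of all 23 synaptic vesicle genes, 2 passed for the average and 0 for the difference, against 0.121% and 0.621% of all genes tested.

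Genes were called alike where KO libraries lay on the same side of all controls in both tissues, the average effect exceeded 0.5 in size and the 95% interval of the difference stayed within 0.5 of 0. The rule found 14 genes (0.0679%), 11 higher and 3 lower, while 970 genes (4.71%) met its first condition. None of the 14 passed the test of the average, so they are described by rule alone. Snx14 was not among the 14 either, because the interval of its difference reached past the limit. Membership depended on the mice: 7 of the 14 still met the rule without control 1, 5 without control 2 and 7 without control 3. Gjb6, the astrocytic connexin 30, was 105, 84.8 and 107 CPM in control and 167 and 153 CPM in KO cerebellum, and 68.4, 47.7 and 59.1 CPM in control and 90.0 and 89.8 CPM in KO cortex. Its effects of 0.70 and 0.62 differed by 0.07 (95% interval -0.18 to 0.32).

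Other alike genes with higher levels included Cp, the copper-carrying ferroxidase ceruloplasmin (average 0.73), Nfkbia, the inhibitor of NF-kappaB (0.65), Dio2, which activates thyroid hormone (0.57), Etnppl, an astrocytic enzyme of phosphoethanolamine breakdown (0.57), and Per1, a circadian and glucocorticoid-responsive gene (0.53). Among the 3 lower ones, Kcnab1 was 162, 161 and 156 CPM in control and 81.0 and 86.1 CPM in KO cerebellum, and 133, 231 and 127 CPM in control and 92.4 and 73.6 CPM in KO cortex. Its effects were -0.93 and -0.98, with a difference of 0.00 (95% interval -0.50 to 0.50). Cacna2d2, a calcium channel subunit, averaged -0.54. Both were highest in the cortex of control 2 and lowest in that of KO 2, as the striatal markers were. The remaining gene, Gm20537, overlaps Snx14 on the same strand, with 88.1% of its exonic bases inside another gene, and its level cannot be separated from that of Snx14.

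Astrocyte markers as a list had like medians in both tissues, 0.37 in cerebellum and 0.25 in cortex. All 12 were positive in each tissue, 3 met the alike rule, 9 had an interval within the limit, and 0 were called for a difference. Their summed level was 5659 to 6277 CPM in control and 7592 to 7842 CPM in KO cerebellum, and 4438 to 5986 CPM in control and 6405 to 6769 CPM in KO cortex. Fibroblast markers also had like medians, 0.65 and 0.63, with 10 of 10 positive in each tissue, and endothelial markers had medians of 0.18 and 0.52, with 12 of 12 positive in cortex, and 0 of either list were called. Without control 1 the fibroblast medians were 0.96 and 1.36, without control 2 they were 0.37 and 0.37, and without KO 2 8 of 10 were positive in each tissue. The endothelial median in cortex was 0.85 without control 1, where the median difference went from -0.30 to -0.71, and the difference was -0.50 without KO 2 and -0.12 without control 3. Genes induced by glucocorticoids had positive effects for 14 of 14 in each tissue, with medians of 0.67 and 0.46, and for 13 and 11 of 14 without KO 1. Plin4, a lipid droplet coat protein in that list, had effects of 2.24 and 1.83 with a difference of 0.38 (adjusted p = 0.547).

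Lists of lipid and organelle genes held 0 called differences, against 0.621% of all genes tested. At that share, few or no calls would fall in lists of this size. Lipid transport genes had median KO effects of 0.29 in cerebellum and -0.02 in cortex, with 13 and 8 of 17 positive. Within cerebellum 4 of them passed the KO against control test, compared with 1.9% of all genes. So did 3 of 16 fatty acid synthesis genes, 1 of 15 lipid droplet genes and 1 of 20 lysosomal genes. None of the cholesterol synthesis or fatty acid oxidation genes passed there, while 6 of 12 astrocyte markers did. The interval of the difference stayed within 0.5 for 16 of 22 cholesterol synthesis genes, 10 of 16 fatty acid synthesis genes, 10 of 13 fatty acid oxidation genes, 4 of 15 lipid droplet genes, 7 of 17 lipid transport genes, 12 of 20 lysosomal genes, 10 of 13 endoplasmic reticulum stress genes and 14 of 23 synaptic vesicle genes, against 7395 of all 20614 genes tested. Over all 42 lists, 24 of the 128 called genes were members of a list and 104 of none.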

How the data were processed

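Total RNA from dissected, frozen cerebellum and cortex was extracted with TRIzol, and strand-specific libraries were prepared and sequenced commercially. The authors trimmed the reads, aligned them to mouse GRCm38 (mm10) with STAR and deposited raw counts per gene from featureCounts (Subread 2.0.1), counted without strand. Those counts are not normalized; entries of no Ensembl gene, 0.16% to 0.926% of counts per library, were left out.

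Counts were analysed with edgeR 4.0.16 and limma 3.58.1 in R 4.3.3. Genes passing a count minimum of 10 (filterByExpr) were kept, and TMM factors were computed over all libraries. The difference was the tissue-by-KO term of a quasi-likelihood model with each mouse and the tissue as terms. Effects within a tissue came from fits of its 5 libraries on the same genes and factors, and average effects from limma with trend on each mouse's mean log2 CPM (prior count 2). P-values were adjusted by the Benjamini-Hochberg method over all genes tested.

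The mouse number in the labels pairs the tissues. Deviations from the group means correlated between the 2 tissues of a mouse with r of 0.164 to 0.370 across genes. Replicates were separate mice. The comparison, its members and the gene lists were chosen with earlier results of these data known. Lists are therefore described by counts and medians. Named genes were Snx14, genes named in the study at 1 year, the 10 called in each direction with the smallest p, the 5 in each direction with the larger effect in cortex, the 5 alike genes in each direction with the largest average, and up to 3 members of each list by p. Other genes named were chosen after their values were seen. The procedure was tested on simulated data. DESeq2 1.42.0, other normalizations and filters, and leaving out each mouse were alternatives. Some genes are not reported here.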

Additional observations from a re-analysis of the deposited data

Results flagged for a closer look

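The KO effect differed between cerebellum and cortex, by the test of the difference itself, for 128 genes, and the values below are those differences on the log2 scale (cerebellum minus cortex). Among PC genes they were -0.89 for Calb1, -0.93 for Pcp2, -1.70 for Car8, -0.76 for Rgs8, -1.01 for Itpr1 and -1.52 for Kitl. Other genes with a lower effect in cerebellum were Stk17b (-1.77), Gm44101 (-1.13), Icmt (-1.22), Kcnip1 (-1.27), Itpka (-1.02), Clmn (-1.10), Cep76 (-1.32), Cck (-1.34), Npy (-1.17), Hopx (-0.90), H2-D1 (-0.58), Cpeb1 (-0.74) and Flt3 (-1.02). Prl (-4.25) rested on KO 1 and control 1.

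Genes with a higher effect in cerebellum were Hrk (1.76), D430019H16Rik (1.75), Agt (1.51), Npas2 (1.5), Camkv (1.12), Lmo3 (1.66) and Inhba (1.47). The glial and complement genes were Gfap (0.84), C4b (1.38), C1qa (0.84) and Fcrls (1.28). Tesc (0.85), Fam102b (0.85), Cacng4 (1.39), Inf2 (1.35), Drd2 (4.13), Penk (2.41) and Adora2a (2.85) had the larger effect in cortex.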

How the results depend on the processing

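With 2 KO mice, the number of calls depended on which mouse was left out and on the pairing. Of 128 genes called with the replicate block, 21 were called with no block, all among the 128. DESeq2 called 254 (124 shared), limma on mouse differences 120, and no filter on low counts 854 (486 higher, 368 lower). Leaving out 1 mouse gave 22 to 288 calls (22 without control 1, 288 without control 2, 81 without control 3, 90 without KO 1 with 63 higher and 27 lower, 31 without KO 2). All 128 kept their sign in every such fit, and 14 were called in each of them, among them Car8, Kitl, Icmt, Hrk, Agt and Cck. With TMM factors computed within each tissue, 35 were higher and 97 lower.

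In cerebellum 391 calls became 738 by DESeq2 and 134 to 586 as mice were left out, the last without control 2. In cortex 0 became 52 by DESeq2 and 0 to 137, again without control 2. The average gave 25 calls, 41 with the mouse as a random effect (13 of the 25 among them), 131 with libraries taken as independent, and 0 to 386, the 386 without control 2 and 0 without control 1, control 3 or KO 1. The alike rule gave 14 genes, 54 with an interval limit of 0.75, 124 with an average limit of 0.25, and 5 to 16 as mice were left out, 5 without KO 1. The genes found alike changed as well, with 7, 5 and 7 of the 14 kept without control 1, control 2 and control 3. The causes were not tested. Of 153 named genes, 38 were called for the difference. An alternative that set a limit of 0.5 on the size of the difference reused the main fit. It kept all 38 by construction, since all 128 called differences exceeded 0.5. Over the alternatives for these 38, 430 values stayed called and 101 did not. Over those for the 115 genes not called, 66 of 1602 values were called. None of the 38 called differences changed sign over the alternatives. Some of those not called did when 1 mouse was left out, such as Sv2c (-0.45 to 0.39) and Kcnab1 (-0.30 to 0.21). The median differences of the lists changed sign in 28 alternatives.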
